A study of Mus musculus with 10 samples.

Results

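The basophil genes were 9 of the 54532 genes in the expression table, taken by name for their role in these cells: the proteases Mcpt8, Prss34 and Cpa3, the IgE receptor genes Ms4a2 and Fcer1a, the mediator genes Hdc and Il4, and the surface receptor genes Cd200r3 and Il3ra. Mast cell proteases were kept apart from them. Spleens came from 5 mice homozygous for the Dusp6tm1Jmol allele (DUSP6 KO, called a knockdown in the sample labels) and from 5 C57BL/6J wild-type (WT) mice, all 8 to 12 weeks old. Every mouse in both groups had KRN serum-induced arthritis (KSIA), with 100 µL of pooled serum of arthritic KRN x NOD F1 mice given intraperitoneally on days 0 and 2, and spleens were taken on day 9, so no spleen without arthritis was compared. The Dusp6 allele is carried by every cell of the mouse. DUSP6 KO and WT mice were bought from the Jackson Laboratories as separate strains, and the sources used here name no littermate controls. Effects of the allele and of other differences between the strains cannot be told apart. Polyadenylated RNA was sequenced with 1 library per mouse, and the libraries are named by animal number, DUSP6 KO replicates 26, 21, 73, 01 and 03 and WT replicates 65, 67, 73, 77 and 83.

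Basophils are rare circulating granulocytes that carry the high-affinity receptor for IgE, and in the mouse they store serine proteases and histamine in their granules and are an early source of IL-4. They share the receptor, histamine synthesis and carboxypeptidase A3 with mast cells, which live in tissues and carry other proteases of the same families, so some of the genes described here are not particular to either cell. The IL-3 receptor, through which basophils are expanded, is carried by other blood cells as well. DUSP6 is a phosphatase that removes phosphate from ERK, the last kinase of a growth factor and cytokine receptor cascade.

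Levels are given as FPKM, fragments scaled by gene length and by the library total, so genes can be set side by side per length. Depth ran from 14990474 to 19822673 reads per library for DUSP6 KO and from 15611652 to 18422147 for WT. Dusp6 was at 0.308 to 0.624 FPKM in DUSP6 KO and at 16.6 to 23.98 FPKM in WT. The B cell gene Cd79a, the T cell gene Cd3e and the splenic macrophage genes Vcam1 and Spic were present in all 10 libraries, with lowest levels of 246, 6.34, 60.6 and 21.1 FPKM. The labels name mice of both sexes, while every library had the Y chromosome gene Ddx3y at 14.4 FPKM or more and Xist no higher than 0.0206 FPKM. WT replicate 77 stood apart in the genes of neutrophil granules, and it was also the highest WT library for 5 of the 9 basophil genes, so the main results are also given without it.

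The 250 bases before the RefSeq start of the 3 genes whose DUSP6 KO and WT values did not overlap are shown here, because the letters before these genes differ although all 3 were lower in DUSP6 KO. Capitals mark the forms of the GATA motif that end in A, searched as AGATAA and TGATAA and, for the other strand, as TTATCT and TTATCA. Forms that end in G, AGATAG and TGATAG, were not searched. The windows are on GRCm38.p6, at chr14:56085198-56085447 on the minus strand for Mcpt8, chr17:25298144-25298393 on the plus strand for Prss34 and chr19:11623720-11623969 on the minus strand for Ms4a2, and each is written 5′ to 3′ along its gene.
Mcpt8: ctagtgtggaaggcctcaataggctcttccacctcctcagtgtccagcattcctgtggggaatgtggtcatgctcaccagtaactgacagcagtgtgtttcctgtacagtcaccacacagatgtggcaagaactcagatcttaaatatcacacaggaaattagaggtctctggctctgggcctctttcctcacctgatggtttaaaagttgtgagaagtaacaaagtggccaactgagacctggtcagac
Prss34: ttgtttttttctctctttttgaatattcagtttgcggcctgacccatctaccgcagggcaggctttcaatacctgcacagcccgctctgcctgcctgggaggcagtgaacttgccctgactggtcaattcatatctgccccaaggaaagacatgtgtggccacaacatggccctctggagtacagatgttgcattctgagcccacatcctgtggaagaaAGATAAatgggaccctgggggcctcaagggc
Ms4a2: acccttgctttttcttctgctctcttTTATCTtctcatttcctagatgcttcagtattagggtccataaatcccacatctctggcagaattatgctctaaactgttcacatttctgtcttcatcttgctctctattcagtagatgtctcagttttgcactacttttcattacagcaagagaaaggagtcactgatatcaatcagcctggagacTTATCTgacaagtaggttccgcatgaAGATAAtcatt
GATA2 is a transcription factor known for its role in basophil and mast cell development, and GATA factors bind such letters. In these windows a searched form was found in 5 of the 9 genes, namely Prss34, Ms4a2, Fcer1a, Cpa3 and Cd200r3. The same forms were found in 18.8% of the 27025 genes with a RefSeq window of the same length. Ms4a2 held 3 matches, Cd200r3 held 2 and the others 1 each. In Prss34 the match began 31 bases before the start, in Cpa3 46 bases, in Fcer1a 92 bases, in Cd200r3 39 and 115 bases, and in Ms4a2 11, 37 and 224 bases before it. No match was found for Mcpt8, Hdc, Il4 and Il3ra, which says only that the searched letters are not in those windows. The unsearched form TGATAG stands in the Hdc window and in a window of Il4. CTATCT, which is AGATAG on the other strand, stands in the Il3ra window. A match is a description of the sequence and no measure of binding.

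All 9 basophil genes passed the filter of a mean of at least 0.1 FPKM over the 10 libraries, and all 9 had a mean log2 level below that of WT in the DUSP6 KO spleens, where 51.0% of all 21296 genes tested did. The difference was largest for the basophil proteases Prss34 and Mcpt8 and for Ms4a2, the beta chain of the IgE receptor, whose 5 DUSP6 KO values all lay below the 5 WT values. Such a lack of overlap with lower values in DUSP6 KO was seen for 0.563% of all genes tested. In limma on log2(FPKM + 0.1), 5 of the 9 genes (Mcpt8, Prss34, Ms4a2, Hdc and Il4) were lower at an unadjusted p under 0.05, where 3.03% of all genes were. None of the 9 reached an adjusted p of 0.05 or less in this fit, after Benjamini-Hochberg adjustment over all genes. Of all genes, 0.0329% did so with lower values. The authors' own test, DESeq2 on counts, lists Prss34 as lower in DUSP6 KO after adjustment, at their threshold of 0.05. The median log2 fold change of the 9 genes was -0.70, beside -0.0046 for all genes. Without WT replicate 77, and also without DUSP6 KO replicate 73, the count of 5 fell to 3, and these were Mcpt8, Prss34 and Ms4a2. In whole spleens, fewer basophils and less of these RNAs per basophil cannot be told apart.

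**Figure D1:**
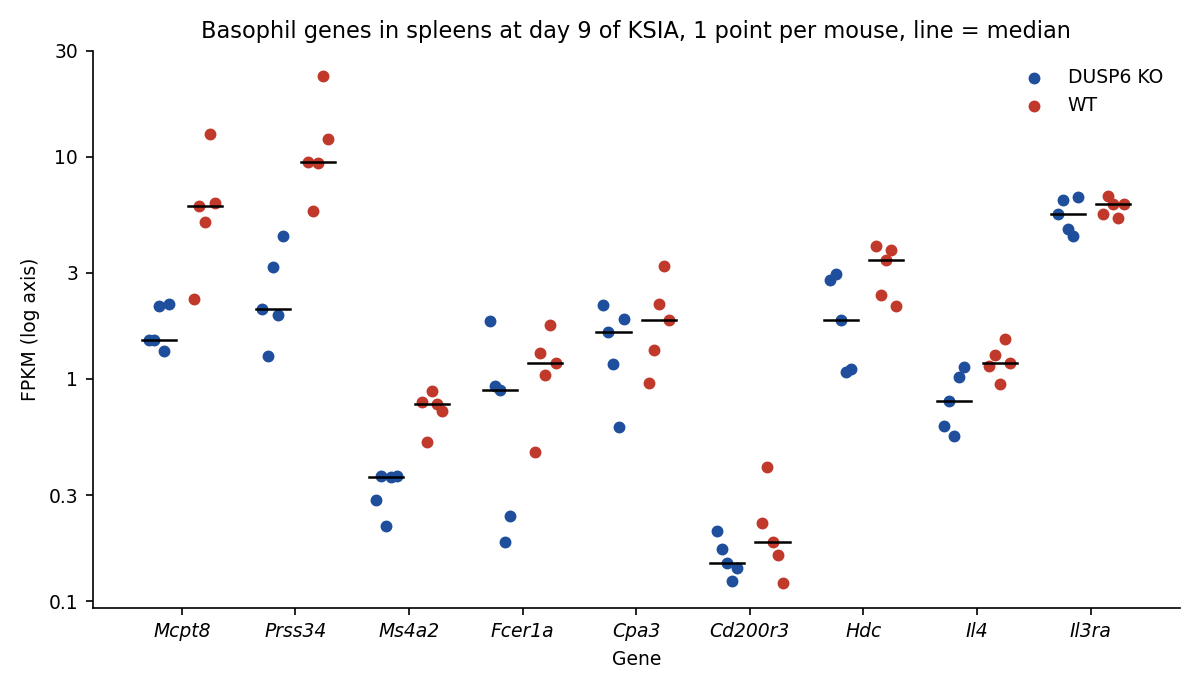
FPKM (log axis) of the 9 basophil genes in each spleen, with blue points for the 5 DUSP6 KO mice, red points for the 5 WT mice and a black line at each group's median. The blue and red points are apart for Mcpt8, Prss34 and Ms4a2 and overlap for the other 6 genes.

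Mcpt8 (ENSMUSG00000022157, chr14:56082166-56085273, minus strand) encodes mouse mast cell protease 8, a granzyme-like serine protease that in spite of its name marks mouse basophils. Its level was 1.504, 1.49, 2.12, 1.34 and 2.17 FPKM in the DUSP6 KO spleens, in the order given above (26, 21, 73, 01, 03), against 2.29, 5.98, 5.11, 12.7 and 6.21 FPKM in the WT spleens (65, 67, 73, 77, 83). The DUSP6 KO spleens lay within a narrow range, while the WT spleens spread widely and WT replicate 65 was just above the highest DUSP6 KO spleen. That gap is smaller than counting error, since the 36 reads of DUSP6 KO replicate 03 allow 1.52 to 3.01 FPKM and the 39 reads of WT replicate 65 allow 1.63 to 3.12 FPKM (exact Poisson 95% intervals, which cover counting error only). Group means were 1.73 ± 0.39 FPKM for DUSP6 KO (SD, n = 5) and 6.45 ± 3.81 FPKM for WT (SD, n = 5). The log2 fold change was -1.67 with an SE of 0.36 (limma, unadjusted p = 0.00085, adjusted p = 0.31). The two-sided exact permutation test gave p = 0.00794, the smallest that 5 against 5 can give. Without WT replicate 77 the log2 fold change was -1.38 (limma, adjusted p = 0.34), and without WT replicate 65 it was -1.99 (limma, adjusted p = 0.046).

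Prss34 (ENSMUSG00000056399, chr17:25298394-25300161, plus strand) encodes mouse mast cell protease 11, a tryptase-like protease that is likewise known from basophils. It was at 2.07, 1.27, 3.20, 1.94 and 4.41 FPKM in the DUSP6 KO replicates and at 9.47, 5.69, 9.35, 23.1 and 12.02 FPKM in the WT replicates, in the same order as above. The highest DUSP6 KO spleen, replicate 03, lay below the lowest WT spleen, replicate 67, and WT replicate 77 was again the highest of all. The exact Poisson 95% intervals of replicates 03 and 67 overlapped, at 3.54 to 5.43 FPKM and 4.76 to 6.74 FPKM. The values rested on 30 to 89 reads per DUSP6 KO library and on 132 to 467 per WT library. The log2 fold change was -2.13 with an SE of 0.39 (limma, unadjusted p = 0.00022, adjusted p = 0.19), the largest of the 9 genes, and ranked 10 by p among the genes lower in DUSP6 KO. Without WT replicate 77 it was -1.86 (limma, adjusted p = 0.23).

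Cpa3 (ENSMUSG00000001865, chr3:20215620-20242181, minus strand) encodes carboxypeptidase A3, a granule enzyme of both basophils and mast cells. It was at 2.15, 1.63, 1.17, 0.608 and 1.87 FPKM in the DUSP6 KO replicates and at 0.964, 1.35, 2.18, 3.21 and 1.84 FPKM in the WT replicates. The groups overlapped, with the second lowest value of all in WT replicate 65. This was a log2 fold change of -0.34 with an SE of 0.37 (limma, unadjusted p = 0.37), within the spread between spleens. It was -0.08 without DUSP6 KO replicate 01, -0.13 without WT replicate 77 and -0.54 without WT replicate 65.

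The IgE receptor is built of an alpha chain that binds IgE, encoded by Fcer1a, a beta chain that amplifies the signal, encoded by Ms4a2, and a gamma chain that other Fc receptors share. Ms4a2 (ENSMUSG00000024680, chr19:11615523-11623719, minus strand) was at 0.286, 0.366, 0.218, 0.361 and 0.364 FPKM in the DUSP6 KO replicates and at 0.790, 0.521, 0.886, 0.770 and 0.714 FPKM in the WT replicates. Every DUSP6 KO spleen was below every WT spleen, and unlike the proteases Ms4a2 was not highest in WT replicate 77. The level was low, with 9 to 22 reads per DUSP6 KO library and 28 to 43 per WT library. The highest DUSP6 KO spleen was replicate 21 and the lowest WT spleen replicate 67. Their exact Poisson 95% intervals overlapped, at 0.223 to 0.565 FPKM and 0.346 to 0.754 FPKM. limma gave a log2 fold change of -0.996 with an SE of 0.21 (limma, unadjusted p = 0.00068, adjusted p = 0.30), and on this scale it is understated by the pseudocount of 0.1. Without WT replicate 77 it was -0.98 (limma, adjusted p = 0.48). The two-sided exact permutation p was 0.00794.

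Fcer1a (ENSMUSG00000005339, chr1:173221284-173227214, minus strand) was at 1.83, 0.928, 0.889, 0.185 and 0.242 FPKM in the DUSP6 KO replicates and at 0.469, 1.31, 1.05, 1.75 and 1.17 FPKM in the WT replicates. The DUSP6 KO spleens held both the highest value, in replicate 26, and the lowest, in replicate 01, where it rested on 4 reads. This was a log2 fold change of -0.70 with an SE of 0.53 (limma, unadjusted p = 0.22), within the spread between spleens. It was -0.37 without DUSP6 KO replicate 01, -0.43 without DUSP6 KO replicate 03 and -1.06 without DUSP6 KO replicate 26 (limma, unadjusted p = 0.056 for the latter). Fcer1g, the gamma chain gene, named here for its place in the receptor, was at 141 to 203 FPKM in DUSP6 KO and 170 to 221 FPKM in WT, far above both other chains, with a log2 fold change of -0.08 (limma, unadjusted p = 0.54).

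Hdc (ENSMUSG00000027360, chr2:126593667-126619299, minus strand) encodes histidine decarboxylase, the enzyme that makes histamine. It was at 2.80, 2.97, 1.84, 1.08 and 1.10 FPKM in the DUSP6 KO replicates and at 3.98, 2.39, 3.44, 3.79 and 2.14 FPKM in the WT replicates. DUSP6 KO replicates 73, 01 and 03 lay below the lowest WT spleen, while replicates 26 and 21 lay among the WT values. The log2 fold change was -0.74 with an SE of 0.31 (limma, unadjusted p = 0.038, adjusted p = 0.84; two-sided exact permutation p = 0.087). With 1 library left out at a time its unadjusted p in limma ran from 0.014 to 0.095, and it was over 0.05 without DUSP6 KO replicates 73, 01 or 03 and without WT replicates 65, 73 or 77.

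Il4 (ENSMUSG00000000869, chr11:53602982-53618669, minus strand) encodes the type 2 cytokine IL-4, which T helper cells also make. It was at 0.611, 0.796, 0.556, 1.02 and 1.13 FPKM in the DUSP6 KO replicates and at 1.14, 1.28, 0.945, 1.52 and 1.18 FPKM in the WT replicates. Only DUSP6 KO replicates 01 and 03 reached the level of the lowest WT spleen, replicate 73. The log2 fold change was -0.54 with an SE of 0.22 (limma, unadjusted p = 0.030, adjusted p = 0.80; two-sided exact permutation p = 0.040), on 10 to 27 reads per DUSP6 KO library and 20 to 31 per WT library. With 1 library left out at a time its unadjusted p in limma ran from 0.013 to 0.073, and it was over 0.05 without DUSP6 KO replicates 26 or 73 and without WT replicates 67 or 77. In limma voom on the recovered reads the unadjusted p was 0.081.

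Cd200r3 (ENSMUSG00000036172, chr16:44943678-44981380, plus strand) encodes an activating receptor of the CD200 receptor family found on mouse basophils and mast cells. It was the lowest of the 9 genes, at 0.206, 0.172, 0.148, 0.123 and 0.141 FPKM in the DUSP6 KO replicates and at 0.225, 0.403, 0.184, 0.161 and 0.121 FPKM in the WT replicates. The single high value was in WT replicate 67, and the other spleens of both groups lay together. The fitted log2 fold change was -0.25 with an SE of 0.29 (limma, unadjusted p = 0.40), on 13 to 46 reads per library, within the spread between spleens, and it was -0.07 without WT replicate 67.

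Il3ra (ENSMUSG00000068758, chr14:14346275-14356011, plus strand) encodes the alpha chain of the IL-3 receptor. It was at 5.51, 6.40, 4.74, 4.42 and 6.58 FPKM in the DUSP6 KO replicates and at 5.54, 6.67, 6.12, 5.29 and 6.11 FPKM in the WT replicates. The groups overlapped over most of their range, and Il3ra varied least between spleens of all 9 genes relative to its level. Its log2 fold change was -0.12 with an SE of 0.13 (limma, unadjusted p = 0.38).

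**Figure D2:**
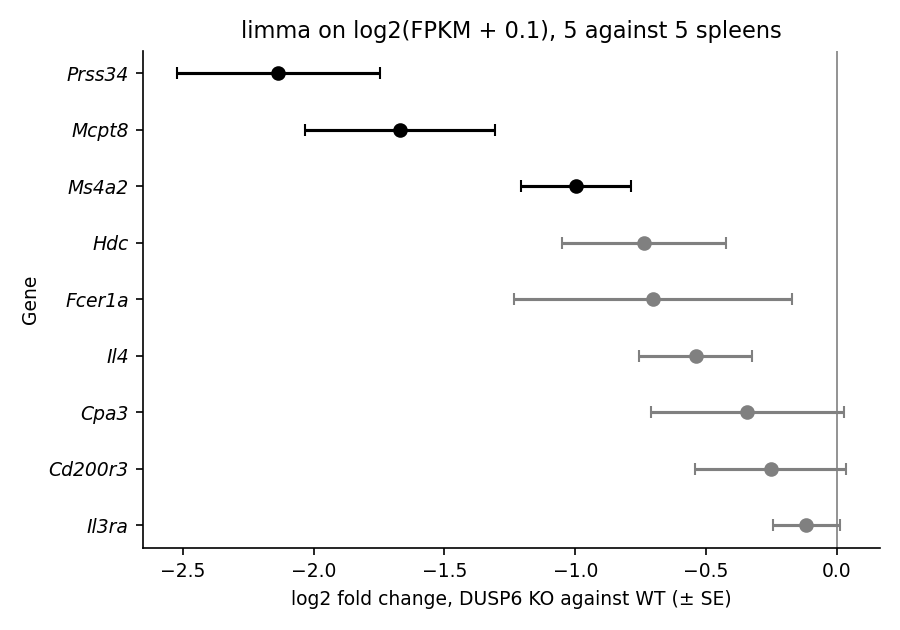
log2 fold change (horizontal axis) of each basophil gene in DUSP6 KO against WT spleens, with bars of 1 SE from limma. Black marks the 3 genes whose groups did not overlap, from -2.13 for Prss34 to -0.996 for Ms4a2, and grey the other 6, down to -0.12 for Il3ra.

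The order of the levels per length differed between the groups in the places of Prss34 and Mcpt8, and Il4 and Fcer1a also changed places. In WT spleens the medians ran from Prss34 (9.47 FPKM) over Il3ra (6.11), Mcpt8 (5.98), Hdc (3.44), Cpa3 (1.84), Il4 (1.18), Fcer1a (1.17) and Ms4a2 (0.770) to Cd200r3 (0.184). Neighbours in this order overlapped in their ranges over the 5 spleens, except Ms4a2 and Cd200r3. In DUSP6 KO spleens the medians ran from Il3ra (5.51 FPKM) over Prss34 (2.07), Hdc (1.84), Cpa3 (1.63), Mcpt8 (1.504), Fcer1a (0.889), Il4 (0.796) and Ms4a2 (0.361) to Cd200r3 (0.148). There Il3ra was above Prss34, Il4 above Ms4a2 and Ms4a2 above Cd200r3 with no overlap, and the other neighbours overlapped. By its median Mcpt8 stood above Hdc and Cpa3 in WT and below both in DUSP6 KO, where it did not differ from either beyond the spread.

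Whether the basophil genes differed by the same amount was asked with the log2 ratio of each of the other 8 genes to Mcpt8 in the same spleen. Of these 8 ratios 7 were higher in DUSP6 KO, and 4, those of Cpa3, Cd200r3, Il4 and Il3ra, differed between the groups at p under 0.05 by two-sided exact permutation tests, with no adjustment over the ratios. The Cpa3 to Mcpt8 ratio was -0.29 ± 0.63 for DUSP6 KO (SD, n = 5) against -1.62 ± 0.42 for WT (SD, n = 5) on the log2 scale. Its difference of 1.33 had an exact permutation p of 0.00794, and the groups did not overlap. The difference was 1.42 for Cd200r3 (exact permutation p = 0.024), 1.13 for Il4 (exact permutation p = 0.024) and 1.55 for Il3ra (exact permutation p = 0.016). For Prss34, the other basophil protease, the ratio differed by -0.46 (exact permutation p = 0.28), and for Ms4a2 by 0.67 (exact permutation p = 0.19). For Hdc and Fcer1a it differed by 0.93 and 0.97 (exact permutation p = 0.14 for each). The count of 4 fell to 2 without DUSP6 KO replicate 21 and likewise without DUSP6 KO replicate 01. The Il4 ratio had an exact permutation p of 0.056 without WT replicate 77, and the Cpa3, Cd200r3 and Il3ra ratios had 0.016, 0.032 and 0.016. All 8 ratios share the Mcpt8 values, so they are not independent of each other. Each difference equals the gene's log2 fold change minus that of Mcpt8, so its direction follows from the fold changes above. For genes with little difference of their own, such as Il3ra and Cd200r3, it mostly repeats the difference of Mcpt8.

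**Figure D3:**
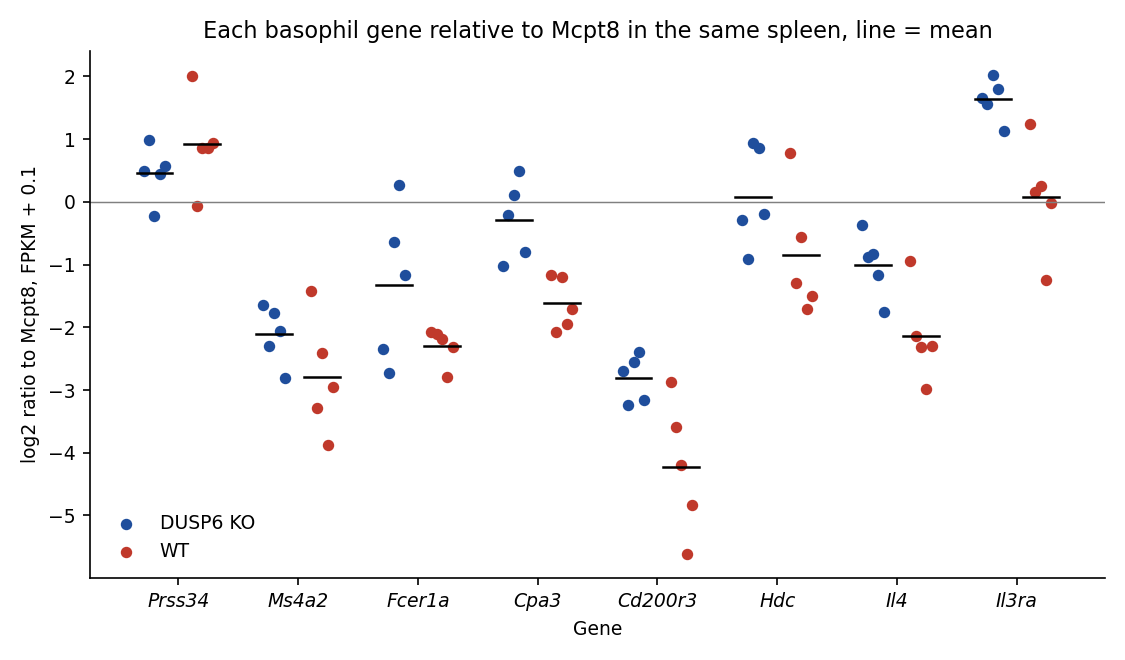
log2 ratio of each of the other 8 basophil genes to Mcpt8 in the same spleen (FPKM + 0.1), with blue points for DUSP6 KO, red points for WT and a black line at the mean. The blue points for Cpa3 lie above all red ones, with means of -0.29 and -1.62, while for Prss34 the colours overlap, with 1 blue point below all the red ones.

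Over the 10 spleens, Prss34 followed Mcpt8 most closely of the members, with a Pearson r of 0.88 and a Spearman rho of 0.94 on log2(FPKM + 0.1), and it ranked 8 among the 13421 other genes that averaged 1 FPKM or more. The group difference and WT replicate 77 are part of these values. The r of the deviations from the group means was 0.60, and r without WT replicates 77 and 83, the spleens farthest from the median of Mcpt8, was 0.75. Il4 ranked 293 (r = 0.68), Cpa3 580 (r = 0.59), Hdc 1507 (r = 0.42) and Il3ra 2899 (r = 0.27). Ms4a2, Fcer1a and Cd200r3, with means under 1 FPKM and so without a rank, had r of 0.71, 0.53 and 0.20. For Ms4a2 the r of the deviations from the group means was -0.19, against 0.66 for Cpa3. The 5 genes outside the 9 that were most like Mcpt8 were Slc35e1 (r = 0.94), Mlec (r = 0.91), Gca (r = 0.91), Rbm39 (r = 0.90) and F13a1 (r = 0.89). Their r of deviations from the group means ran from 0.66 for F13a1 to 0.91 for Gca, and their r without the same 2 spleens from 0.75 for F13a1 to 0.90 for Slc35e1. These genes were picked as the highest of 13421, so their r carries no test.

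Mcpt8 lies in the chymase cluster of chromosome 14, a row of related serine protease genes that mast cells, neutrophils and lymphocytes use. Of its 14 neighbours there, 7 passed the filter and 7 were too low to test. Mcpt4, a mast cell chymase gene 22.5 kb from Mcpt8 (distances are between the lower coordinates of 2 genes), had the opposite direction. It was at 4.93, 6.41, 2.28, 4.21 and 4.90 FPKM in the DUSP6 KO replicates and at 0.422, 1.09, 0.994, 1.25 and 0.353 FPKM in the WT replicates. Every DUSP6 KO spleen was above every WT spleen, as for 0.549% of all genes tested. Its log2 fold change was 2.40 with an SE of 0.37 (limma, unadjusted p = 4.9e-05, adjusted p = 0.061). The authors' DESeq2 results list Mcpt4 as higher in DUSP6 KO after adjustment. Ctsg, the neutrophil cathepsin G gene 17.7 kb on the other side, had a log2 fold change of -1.21 (limma, unadjusted p = 0.052). Gzmc, a granzyme gene at 149 kb, had -1.07 (limma, unadjusted p = 0.025, adjusted p = 0.79) on 7 reads in all DUSP6 KO libraries and 25 in all WT libraries. The mast cell chymase genes Cma1 and Mcpt1 had -0.06 and -0.05 (limma, unadjusted p = 0.86 and 0.94), and Mcpt2, a further mast cell protease gene at 40.1 kb, had 1.13 (limma, unadjusted p = 0.065). Gzmb, the granzyme B gene of cytotoxic lymphocytes, had -0.22 (limma, unadjusted p = 0.43). The log2 ratio of Mcpt4 to Mcpt8, looked at after the values were seen and not tested, was 1.30 ± 0.74 for DUSP6 KO (SD, n = 5) against -2.77 ± 0.72 for WT (SD, n = 5).

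The same arrangement was seen at Prss34, in the tryptase cluster of chromosome 17. Tpsb2, a mast cell tryptase gene 68.2 kb from Prss34, was at 2.93, 1.71, 1.70, 1.58 and 2.79 FPKM in the DUSP6 KO replicates. In WT replicates 73, 77 and 83 it was at 0.697, 0.779 and 0.413 FPKM, and it had no read in WT replicates 65 and 67. Its log2 fold change was 2.74 with an SE of 0.65 (limma, unadjusted p = 0.0015, adjusted p = 0.37), again with no overlap. Tpsab1, a further mast cell tryptase gene under the filter, had 13 reads over the DUSP6 KO libraries and 0 over the WT libraries. Prss29, 20.3 kb from Prss34, had a log2 fold change of -0.61 (limma, unadjusted p = 0.13). The closest transcript of another gene to that of Prss34 was of Tpsab1, at 66.0% identity over 662 bases, and to Mcpt8 that of Gm48927, at 79.6% over 142 bases. Ms4a2 had its closest match in Ms4a4b, at 79.5% identity over 1298 bases. In the annotation Mcpt8 overlaps Mir6949, which was at 0 FPKM in every library, Cpa3 overlaps Mir7007 (0 to 0.735 FPKM) and Il3ra overlaps the antisense gene Gm48860 (0 to 0.190 FPKM). Whether strand was used in the counting is not given in the sources used here.

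**Figure D4:**
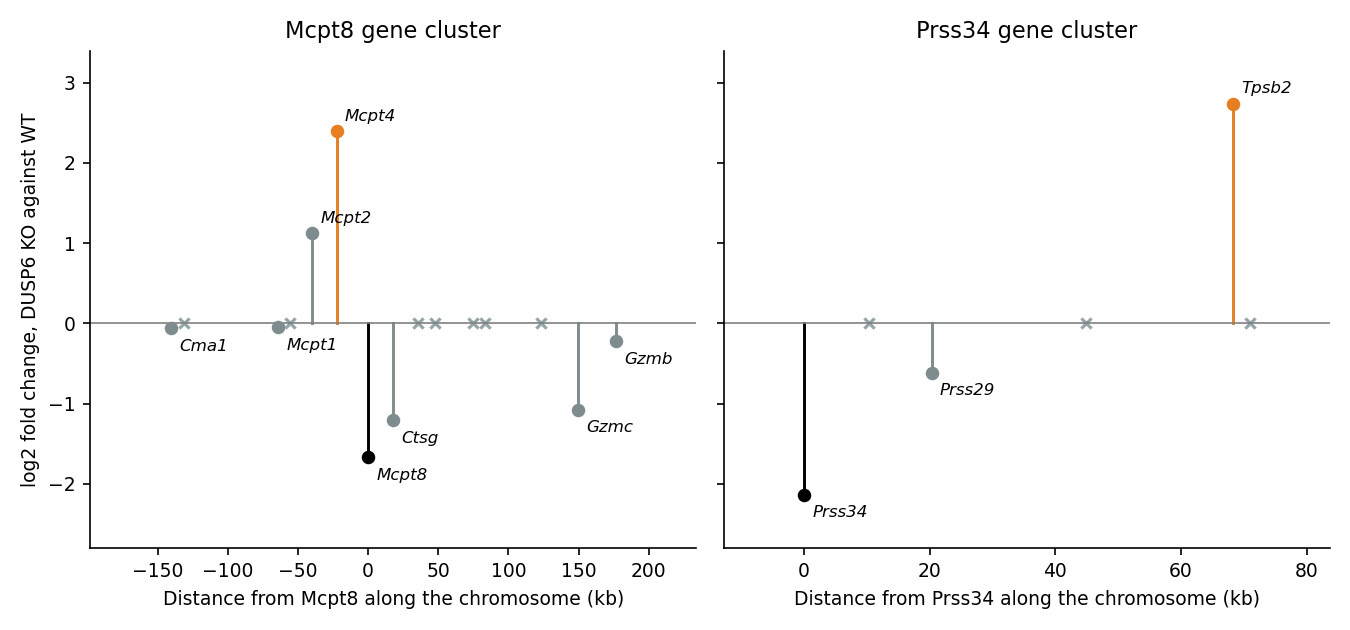
log2 fold change in DUSP6 KO against WT (vertical axis) of the genes around Mcpt8 (left) and Prss34 (right), against the distance between lower coordinates in kb. Black marks the 2 basophil proteases, orange the 2 neighbours with no overlap between the groups (Mcpt4 at 2.40 and Tpsb2 at 2.74), grey the other tested genes, and crosses at 0 genes too low to test.

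Of the 12 mast cell markers, 6 passed the filter. Mcpt4 and Tpsb2 were higher at an unadjusted p under 0.05, where 2.62% of all genes were, none was lower, and the median log2 fold change of the 6 was 0.54. The summed level of all 12 was 12.3 to 17.7 FPKM in DUSP6 KO and 8.26 to 11.7 FPKM in WT. It includes Kit, which stem cells carry too and which was at 5.07 to 6.31 FPKM in DUSP6 KO and 5.57 to 6.58 FPKM in WT. The difference in the mast cell sum lay mostly in Mcpt4 and Tpsb2. Their means were 4.54 and 2.14 FPKM in DUSP6 KO and 0.821 and 0.378 FPKM in WT. Mrgprb2, a receptor gene of connective tissue mast cells, had 1 read in 1 DUSP6 KO library and none in the others. Mrgprb1, a further receptor gene of the list under the filter, had 7, 2, 4, 1 and 3 reads in the DUSP6 KO replicates. In WT it had 3 reads in replicate 73 and none in the others. Mrgprx2, also under the filter, had reads in both groups, with at most 3 in a library. The summed level of the 9 basophil genes was 11.1 to 18.02 FPKM in DUSP6 KO and 24.9 to 52.3 FPKM in WT. Most of this difference lay in Prss34 and Mcpt8, with means of 2.58 and 1.73 FPKM in DUSP6 KO and 11.9 and 6.45 FPKM in WT. Since Cpa3, Fcer1a, Ms4a2, Hdc and Cd200r3 are used by mast cells too, their RNA in whole spleens cannot be assigned to either cell, and the part of mast cells in their values was not tested.

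In the pathways around these genes, few other genes were past the unadjusted threshold. The 12 genes of IgE receptor signalling were all tested, with a median log2 fold change of -0.09. At an unadjusted p under 0.05, none was higher, where 2.62% of all genes were, and 1 was lower, where 3.03% were. That gene was Btk, a kinase of B cells and myeloid cells, at 31.9 ± 4.3 FPKM for DUSP6 KO (SD, n = 5) against 38.6 ± 4.8 FPKM for WT (SD, n = 5) (limma, adjusted p = 0.82), and Syk, the kinase that the gamma chain recruits, had a log2 fold change of -0.25 (limma, unadjusted p = 0.12). Of 14 genes for IL-3, TSLP and IL-33 with their receptors and transducers, 13 were tested and none passed in either direction. Il33 and Csf2rb, the shared beta chain gene of the IL-3 receptor, had log2 fold changes of -0.25 and -0.15 (limma, unadjusted p = 0.14 and 0.18), and Il3 had no read in any library. Of 8 genes for transcription factors of basophil development, all tested, none passed, and those with the lowest p were Nfil3 at -0.26 and Irf8 at -0.08 (limma, unadjusted p = 0.19 and 0.53).

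Among 19 further effector and surface genes of basophils, 16 were tested, with a median log2 fold change of -0.24. At an unadjusted p under 0.05, 4 were lower, where 3.03% of all genes were, and none was higher, where 2.62% were. Ccl3, a chemokine gene that many activated myeloid cells use, was at 1.13 ± 0.54 FPKM for DUSP6 KO (SD, n = 5) against 2.42 ± 0.79 FPKM for WT (SD, n = 5). Its log2 fold change was -1.09 with an SE of 0.33 (limma, unadjusted p = 0.0076, adjusted p = 0.59), and it was lowest in WT in replicate 77, where Mcpt8 and Prss34 were highest. Alox5 and Ltc4s, which make leukotrienes, had log2 fold changes of -0.61 and -0.34 (limma, unadjusted p = 0.026 and 0.034). Ccr2, a chemokine receptor gene of monocytes and basophils, had -0.50 (limma, unadjusted p = 0.030). None of the 4 reached an adjusted p of 0.05.

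Markers of other cells that could share these RNAs were read in the same way. All 10 neutrophil granule genes had a log2 fold change below 0, where 51.0% of all genes did, with a median of -1.16. At an unadjusted p under 0.05, 6 were lower, where 3.03% of all genes were (Lcn2, Mmp8, Elane, Camp, Ngp and Ltf, with limma adjusted p of 0.77 to 0.87). The 10 genes summed to 215 to 731 FPKM in DUSP6 KO and 318 to 2038 FPKM in WT. The highest sum was in WT replicate 77, as for Mcpt8 and Prss34, and the part of these 10 genes in the basophil values was not tested. Without that spleen the log2 fold changes were -1.38 for Mcpt8, -1.86 for Prss34 and -0.98 for Ms4a2. Of 9 eosinophil markers, Ear2 had a log2 fold change of 0.31 and Il5ra of -0.72 (limma, unadjusted p = 0.018 and 0.024), and the sums were 83.8 to 141 FPKM in DUSP6 KO and 82.6 to 123 FPKM in WT. Of 11 genes of type 2 and follicular helper T cells, which also make IL-4, 9 were tested and none passed, the lowest p being those of Bcl6 and Il21 (log2 fold changes of -0.31 and -0.60, limma, unadjusted p = 0.11 and 0.20). Of 8 plasmacytoid dendritic cell markers, which include carriers of Il3ra, Siglech alone passed at 0.34 (limma, unadjusted p = 0.029), and Spib had -0.27 (limma, unadjusted p = 0.25). Of 8 stem and progenitor cell markers none passed, and Flt3 had a log2 fold change of -0.29 (limma, unadjusted p = 0.073). Over the 10 lists beside the 9 basophil genes, 98 of 110 genes were tested, and none reached an adjusted p of 0.05 in limma. At an unadjusted p under 0.05, 12 were lower and 4 higher, where 3.03% and 2.62% of all genes were.

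**Figure D5:**
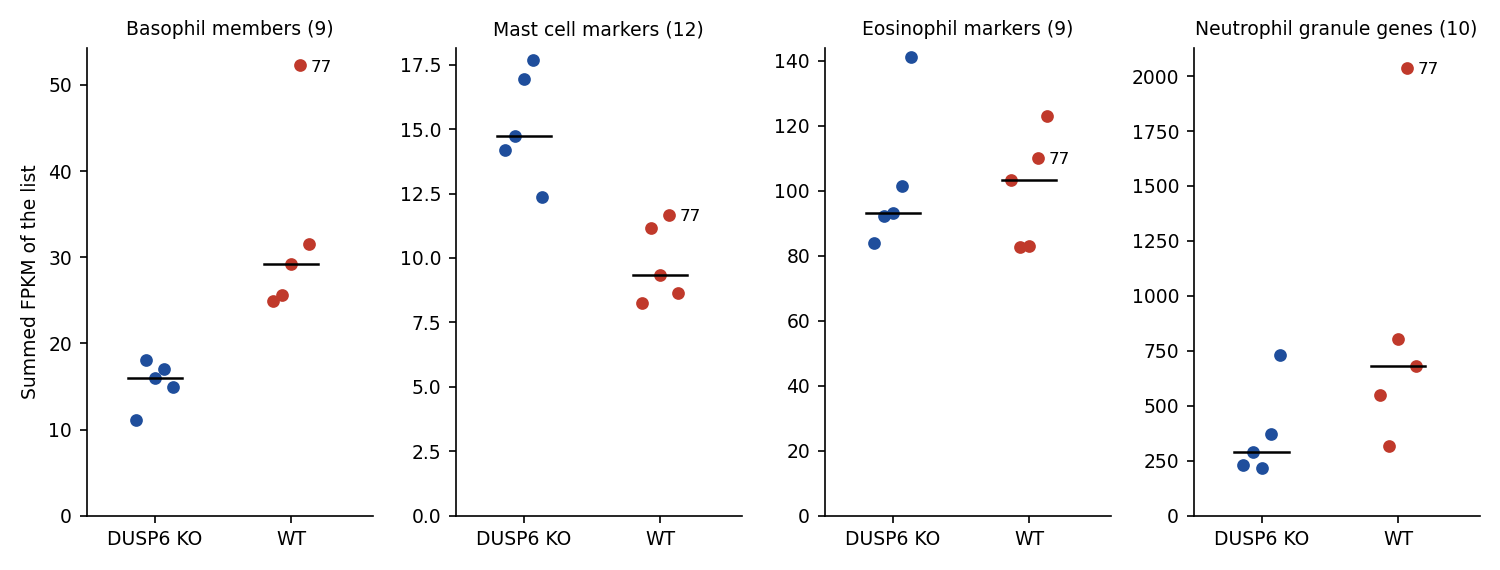
Summed FPKM (vertical axes, from 0, a scale for each panel) of the 9 basophil genes, 12 mast cell markers, 9 eosinophil markers and 10 neutrophil granule genes in each spleen, with blue points for DUSP6 KO, red points for WT and a line at the median. The basophil sums are 11.1 to 18.02 in DUSP6 KO and 24.9 to 52.3 in WT, the mast cell sums lie the other way round, and WT replicate 77 is marked. Most of the difference lies in Prss34 and Mcpt8 for the basophil sums and in Mcpt4 and Tpsb2 for the mast cell sums.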

How the data were processed

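RNA of 10 spleens was sequenced as paired-end reads, aligned by the authors with Hisat2 and counted per gene with featureCounts 1.5.0-p3. The authors deposited FPKM values, the counts divided by gene length and library total, with no further normalization. The labels name hg38 as the build, but all identifiers are of mouse genes. Of the 54532 genes, 54495 are in GENCODE release M21 (GRCm38), 98.3% of them with identical coordinates, and positions are given on GRCm38.

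Multiplying FPKM by gene length gave whole multiples of a step for 100% of values (within 0.05 of a read), and this gave the reads per gene and library.

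For the test, a pseudocount of 0.1 was added to FPKM, log2 was taken, and genes that averaged 0.1 FPKM or more over the 10 libraries (21296) were fitted in limma 3.58.1 (R 4.3.3) with a trend in eBayes and no covariate. P-values were adjusted over all of these by Benjamini-Hochberg. The pseudocount makes changes of low genes look smaller. Single genes and ratios were compared by two-sided exact permutation tests in scipy 1.17.1. Transcripts were compared with blastn 2.17.0, and upstream sequences come from RefSeq (GRCm38.p6), where all 9 genes matched by symbol. The procedure was tested on simulated data.

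Named are all 9 basophil genes, from each further list the genes with an unadjusted p under 0.05 (at least 2 per list, the lowest p otherwise), and the 5 genes most like Mcpt8. Some genes that this rule or the marker lists take are not reported here. The cluster neighbours, Fcer1g, Kit, Mrgprb1, Mrgprb2, Mrgprx2 and Klk1 were added with their values known. The members and the lists were chosen with earlier results of these data known. Alternatives were other pseudocounts (1 and 0.01), filters, eBayes settings, scalings and leaving out each library, and limma voom on the recovered reads, which was chosen after seeing the data.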

Additional observations from a re-analysis of the deposited data

Results flagged for a closer look

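Among 70 groups of 5 values, 2 for each of 35 genes, 5 held a spleen far from the others of its group. Chance would flag about 1 group in 20 if the groups were independent. The genes share the same spleens and were in part taken for a low p, so the count is not set against that rate. Of the 5 flagged groups, 4 were neutrophil granule genes in WT replicate 77, the spleen with the highest Mcpt8 and Prss34, so they are not separate flags. Lcn2 was at 136 FPKM there and at 25.8 to 56.5 FPKM in the other WT spleens. Elane was at 173 FPKM there and at 21.2 to 58.7 FPKM in the others. Camp was at 383 FPKM there and at 64.1 to 152 FPKM in the others, and Ngp at 875 FPKM and at 138 to 349 FPKM. The T cell cytokine gene Il21 was at 0.474 FPKM in WT replicate 73 and at 0.0445 to 0.159 FPKM in the other WT spleens. The screen did not cover every gene of the lists. Klk1, in the plasmacytoid dendritic cell list and outside these 35 genes, was at 285 FPKM in WT replicate 67. In the other libraries of both groups it was at 1.62 to 4.18 FPKM. None of the 9 basophil genes held such a spleen in either group. The part of these spleens in the basophil values was not tested beyond leaving each out in turn.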

How the results depend on the processing

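Each of Mcpt8, Prss34 and Ms4a2 kept an unadjusted p under 0.05 under every alternative in which it was tested; at a mean of at least 1 FPKM, Ms4a2, Fcer1a and Cd200r3 were not tested. Leaving out 1 library at a time, the number of basophil genes at an adjusted p of 0.05 ran from 0 to 1 (Mcpt8, without WT replicate 65), at an unadjusted p under 0.05 from 3 to 5, and with no overlap from 3 to 4, a count that leaving out a library cannot lower. Ratios to Mcpt8 past the threshold ran from 2 to 6, genes of the other lists from 6 to 18 (6 without DUSP6 KO replicate 01, 9 without DUSP6 KO replicate 03 and 7 without WT replicate 73, against 16), all genes at an adjusted p of 0.05 from 10 to 34 (34 without DUSP6 KO replicate 21, against 15) and at an unadjusted p under 0.05 from 998 to 1498. At a mean of at least 1 FPKM, 758 of 13422 genes had an unadjusted p under 0.05, against 1205 of 21296, with fewer genes tested. No log2 fold change or ratio of the basophil genes changed sign. In other settings than these, 4 to 5 basophil genes passed unadjusted and 0 adjusted, and with a pseudocount of 1 the ratios past the threshold were 6, with Ms4a2 and Fcer1a added. The scalings moved the median of all genes by less than 0.1 on the log2 scale.

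edgeR and DESeq2 on the recovered reads were planned and not run, and limma voom was run on those reads. No paired analysis was possible because the groups share only 1 animal number, 73. The depth limits Ms4a2, Fcer1a, Cd200r3 and Il4, with under 50 reads per library, and single values of these genes carry wide counting errors.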
